A study of Mus musculus with 8 samples.

Results

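The genes described here are Serpinb2, Plau, Plaur and Plat, the members of the plasminogen activator system named by symbol, 4 of the 36799 genes and transcripts on the array. Each had 1 probe, named through its RefSeq accession. Primary microglia, the resident macrophages of the brain, were taken from C57BL/6 mice and treated for 3 h with PBS, with 20 µg/ml of recombinant Fc (the constant part of an antibody), or with the same concentration of a fusion of Fc to part of Ecrg4, a secreted precursor protein. The part was either residues 71 to 132 or residues 133 to 148. These 4 groups are called PBS, Fc, Ecrg4(71-132) and Ecrg4(133-148). Each group had 2 one-colour arrays, and the labels number them as set 1 and set 2. Nothing says whether a set is a separate culture or animal, so p-values measure only the spread between these samples. Serpinb2 was chosen by its measured rise with both fragments in both sets. Its differences from Fc and from PBS, and that of Fc from PBS, are therefore given as a description with no test. Plau, Plaur and Plat were taken as the activators and the receptor of the same system.

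Plasminogen, made mainly by the liver, is cut to plasmin, a protease that dissolves fibrin and degrades matrix proteins. The cut is made by urokinase, the product of Plau, or by tissue plasminogen activator, the product of Plat. Plaur encodes the receptor that holds urokinase at the cell surface. Serpinb2 encodes plasminogen activator inhibitor 2, a serpin that can inhibit both activators but stays largely inside the cell, and whose RNA is known to be strongly inducible in activated macrophages. In the brain, tissue plasminogen activator is also known for its roles in neurons and glia.

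Of the 4 members, 2 matched an entry in the table of upstream sequences, Serpinb2 and Plaur. Plau and Plat had no entry, so motifs cannot be compared with the order of the treatments. Shown are the 250 bases before a transcription start, from RefSeq on GRCm38.p6. Capitals mark matches on either strand to 3 motifs. The AP-1 motif was written as TGANTCA. The loose NF-kB motif was a run of 3 guanines, any 5 bases, then 2 cytosines. The core promoter element searched was the TATA box, as TATAAA.
Serpinb2, chr1:107511173-107511422, plus strand: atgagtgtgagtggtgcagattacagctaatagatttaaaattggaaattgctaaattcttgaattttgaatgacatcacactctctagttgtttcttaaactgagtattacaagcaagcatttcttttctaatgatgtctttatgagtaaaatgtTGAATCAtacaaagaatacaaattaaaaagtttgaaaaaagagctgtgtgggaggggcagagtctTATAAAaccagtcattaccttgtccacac
Plaur, chr7:24462233-24462482, plus strand: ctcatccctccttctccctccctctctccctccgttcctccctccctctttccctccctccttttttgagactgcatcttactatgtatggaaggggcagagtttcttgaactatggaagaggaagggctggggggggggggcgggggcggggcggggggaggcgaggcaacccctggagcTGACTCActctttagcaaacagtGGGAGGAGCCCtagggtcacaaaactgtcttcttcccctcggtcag
The window of Serpinb2 held 1 AP-1 match, TGAATCA, from 94 to 88 bases before the start, and 1 TATA box from 29 to 24 bases before it. A further start of Serpinb2 in the table lies 87 bases downstream, and its window holds the same 2 matches. The window of Plaur held the AP-1 match TGACTCA from 69 to 63 bases before the start and 2 overlapping NF-kB matches, on opposite strands, from 46 to 36 bases before it. Of all 32841 windows of this length, 6.75% held the AP-1 motif, 12.4% the TATA box and 45.8% the loose NF-kB motif. No motif here overlaps another of a different name. The cyclic AMP response element TGACGTCA, present in 1.55% of windows, was in neither. These are letter matches, and binding was not measured.

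All 10 listed microglia markers were well above background in set 1 and 8 to 9 of 10 in set 2, where Sall1 was not on any array. Their summed level, on a linear scale in units of the 75th percentile, was 571 to 611 in set 1 and 485 to 577 in set 2, but their median log2 level was 3.81 to 3.90 in set 1 and 0.56 to 0.73 in set 2. Arrays of the same set resembled each other (correlation across genes 0.975 to 0.997) more than the 2 arrays of a treatment did (0.953 to 0.962). Values below are therefore given within each set. The 75th percentile of spot intensity ran from 494.6 to 809.3. Levels are log2 signals on a scale where the 75th percentile of each array is 0. Probes differ in how well they bind, so the levels of different genes do not rank their RNA, and a gene called the brightest has the strongest probe signal of its list. With 2 arrays a group, precision is limited by their number.

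Serpinb2 was the member that differed most between treatments. With PBS its level was 1.25 in set 1 and 1.21 in set 2. Fc gave 1.89 and 1.45, Ecrg4(133-148) 3.47 and 4.09, and Ecrg4(71-132) 4.16 and 5.03. All 4 fragment arrays lay above all 4 control arrays, and the groups rose in the same order in both sets: PBS, Fc, Ecrg4(133-148), Ecrg4(71-132).

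**Figure D1:**
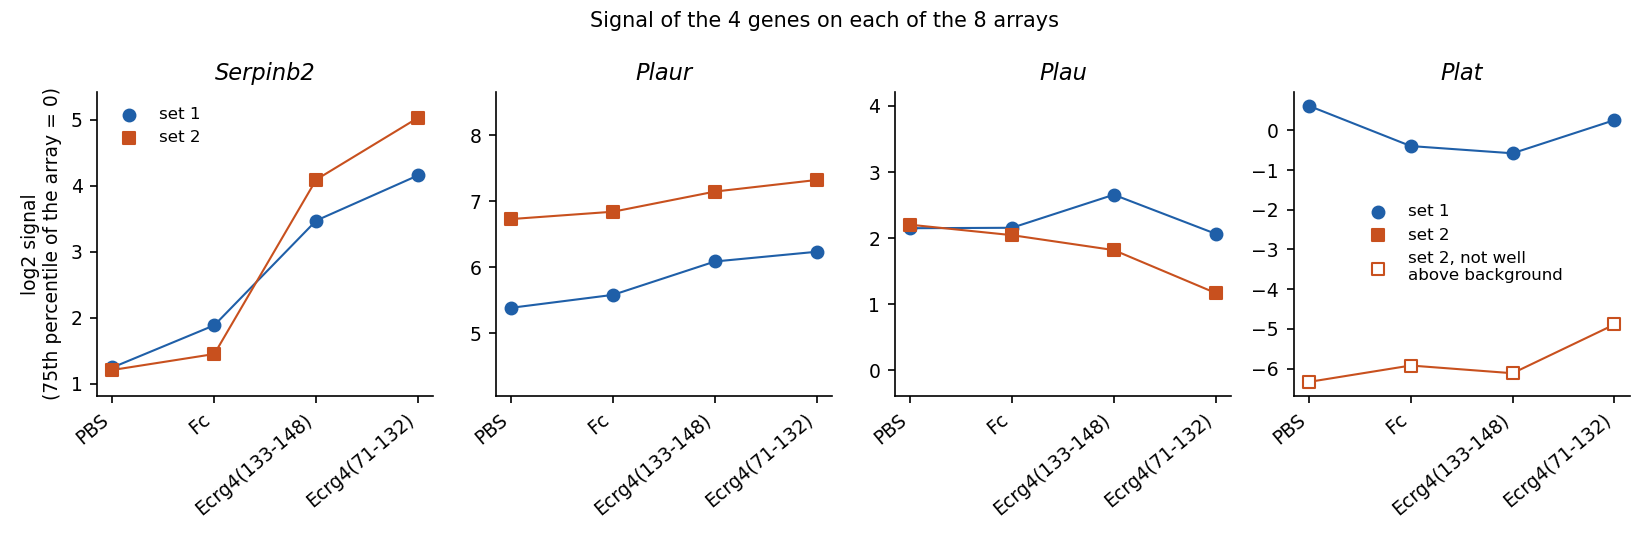
Log2 signal of Serpinb2, Plaur, Plau and Plat (vertical axis, 75th percentile of the array at 0) for each treatment (horizontal axis) on each of the 8 arrays. Blue circles are set 1 and orange squares set 2, and open symbols mark arrays on which the probe was not well above background. The first 3 panels span the same range of log2 units, and that of Plat spans more. Serpinb2 and Plaur climb from PBS to Ecrg4(71-132) in both sets, Plau is lowest with Ecrg4(71-132), and Plat is measured in set 1 only.

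Against Fc, Serpinb2 was 4.82-fold higher in set 1 and 11.9-fold higher in set 2 with Ecrg4(71-132), a mean difference of 2.92 on the log2 scale (SD of the group, n = 2, 0.62 with the fragment and 0.31 with Fc). With Ecrg4(133-148) it was 3.00-fold and 6.24-fold higher, a mean difference of 2.11 (SD 0.44 with the fragment, n = 2). Against PBS the folds were 7.51 and 14.1 with Ecrg4(71-132), and 4.67 and 7.38 with Ecrg4(133-148). Fc itself was 1.56-fold above PBS in set 1 and 1.18-fold in set 2. Serpinb2 was thus over 2-fold above Fc in both sets with each fragment. Of the 19114 genes fitted, 0.46% were so with Ecrg4(71-132) and 0.0523% with Ecrg4(133-148). Only 7 genes exceeded Serpinb2 in both sets with Ecrg4(71-132), and 2 did with Ecrg4(133-148). These ranks describe the choice of the gene and support nothing further.

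**Figure D2:**
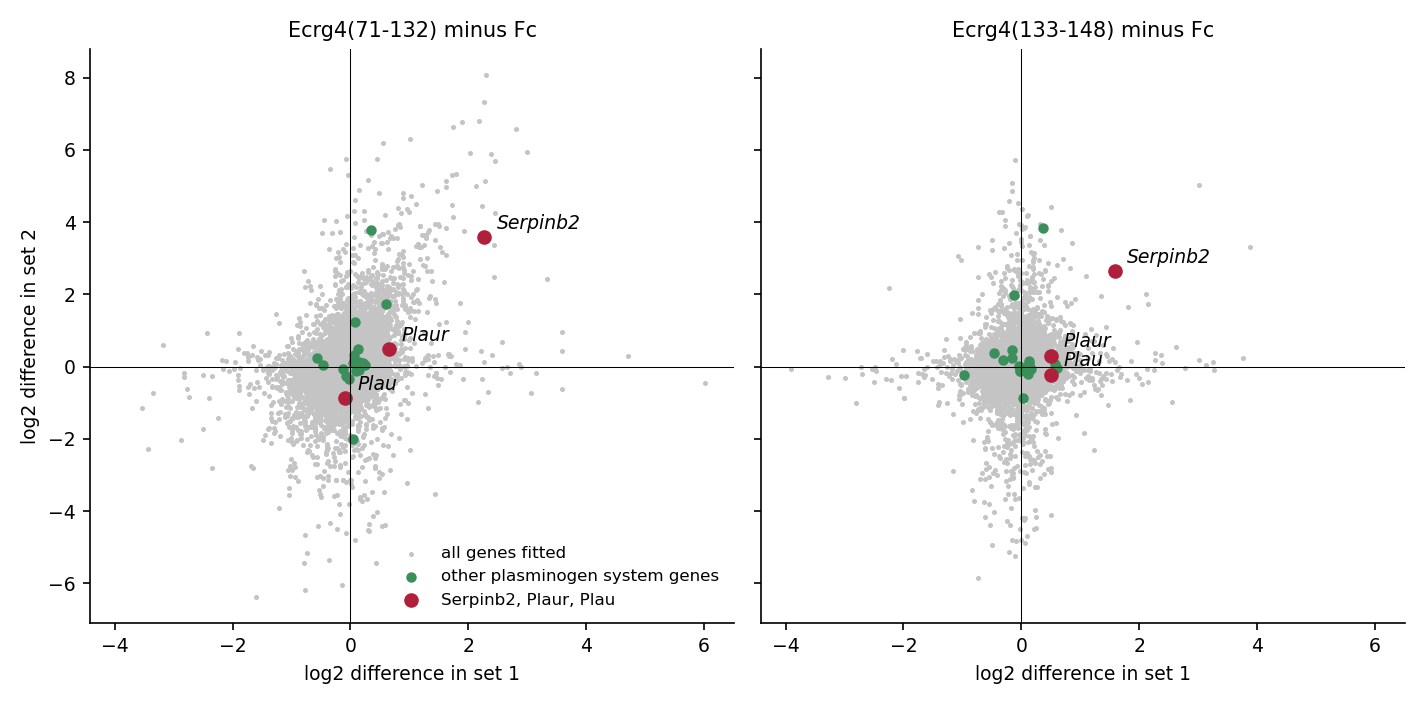
Log2 difference from Fc in set 1 (horizontal axis) against that in set 2 (vertical axis), for Ecrg4(71-132) on the left and Ecrg4(133-148) on the right. Grey points are all 19114 genes fitted, green points the 20 fitted genes of the plasminogen system list, and red points Serpinb2, Plaur and Plau. Serpinb2 lies far out at upper right in both panels, at 2.27 and 3.58 on the left and at 1.59 and 2.64 on the right, while Plaur (0.65 and 0.48, then 0.51 and 0.31) and Plau (-0.09 and -0.88, then 0.50 and -0.23) lie closer to 0.

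The difference between the fragments was not used to choose Serpinb2. Serpinb2 was lower with Ecrg4(133-148) than with Ecrg4(71-132) by 1.61-fold in set 1 and 1.91-fold in set 2. The log2 difference was -0.81 (SE 0.37, 95% interval -1.74 to 0.12) and did not pass the test (limma, adjusted p = 1). Blocking on the set, the interval was -1.73 to 0.11 (limma, adjusted p = 0.714). Both intervals include 0 and differences of over 2-fold. Serpinb2 and Plaur were lower in both sets, as 23.7% of all genes were. In this comparison 0% of genes passed, with or without the block, although 141 and 1210 reached an unadjusted p under 0.05. Between the sets, with the treatment held, Serpinb2 differed by 0.25 (set 2 minus set 1, SE 0.25, limma, adjusted p = 0.411).

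Plaur, the urokinase receptor gene, followed the same order at a much smaller scale. It stood at 5.39 with PBS, 5.58 with Fc, 6.09 with Ecrg4(133-148) and 6.24 with Ecrg4(71-132) in set 1. In set 2 the same treatments gave 6.73, 6.84, 7.15 and 7.32. Within each set the fragment arrays lay above the controls, but every set 2 array lay above every set 1 array.

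With Ecrg4(71-132) Plaur was 1.57-fold above Fc in set 1 and 1.40-fold in set 2. The mean log2 difference of 0.57 (SE 0.74, n = 2 against 2) did not pass the test (limma, adjusted p = 1). With Ecrg4(133-148) it was 1.42-fold and 1.24-fold above Fc, a mean log2 difference of 0.41 (SE 0.74, limma, adjusted p = 1). The SE of these fits holds the difference between the sets. Blocking on the set, the SE was 0.10, and the 95% intervals were 0.31 to 0.82 for Ecrg4(71-132) and 0.15 to 0.66 for Ecrg4(133-148), not adjusted for the number of genes. Neither passed over all genes with the block (limma, adjusted p = 0.207 and 0.836). Without the block, leaving out the set 1 Fc array turned the mean difference from Fc to -0.06 for Ecrg4(71-132) and -0.22 for Ecrg4(133-148), since the means then compare different sets. Leaving out the set 2 array of Ecrg4(133-148) gave -0.12.

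Higher in both sets, as Plaur was, were 28.5% of all genes with Ecrg4(71-132) and 28.5% with Ecrg4(133-148). With Ecrg4(71-132) 210 genes exceeded Plaur in both sets, and with Ecrg4(133-148) 121 did. The full order of PBS, Fc, Ecrg4(133-148) and Ecrg4(71-132) from low to high in both sets held for 882 genes, 4.61% of those fitted, Serpinb2 and Plaur among them. For Serpinb2 the choice of the gene had already placed the fragments above the controls, so this share is no support for it. Both kept the order in all 5 versions of the values: the main one, normexp correction, quantile scaling, median scaling and the deposited log2 table. The deposited values differ from the main ones only by a constant per array, so these are not separate checks. Between the fragments Plaur did not pass the test. Ecrg4(133-148) minus Ecrg4(71-132) was -0.15 in set 1 and -0.18 in set 2 (95% interval in the blocked fit -0.42 to 0.09, limma, adjusted p = 0.714). Fc stood 0.15 above PBS on average (SE 0.74, limma, adjusted p = 1).

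Of the members fitted, only Plaur passed the test between the sets, save that Plau did with normexp background correction. Plaur was 1.19 higher in set 2 on the log2 scale, or 2.28-fold (SE 0.07, limma with the treatment held, adjusted p = 0.000361), by 1.06 to 1.34 in each of the 4 treatments. Such differences were common: 59.3% of all genes passed this test, 36.4% with the higher level in set 2 and 22.8% with the lower. The set difference in Plaur exceeded the mean difference between either fragment and Fc.

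Plau, the urokinase gene, did not follow Serpinb2. In set 1 it stood at 2.15 with PBS, 2.16 with Fc, 2.06 with Ecrg4(71-132) and 2.66 with Ecrg4(133-148). In set 2 it stood at 2.20, 2.04, 1.17 and 1.82 in the same order of treatments. The PBS and Fc arrays lay close together, Ecrg4(71-132) was the lowest array of each set, and Ecrg4(133-148) was the highest in set 1 and below both controls in set 2.

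With Ecrg4(71-132) Plau was 1.07-fold below Fc in set 1 and 1.84-fold below it in set 2, a mean log2 difference of -0.48 (SE 0.39, 95% interval -1.47 to 0.50, limma, adjusted p = 1). The set 1 difference was too small to hold a direction: it was -0.09, and 0.03 under median scaling. With Ecrg4(133-148) Plau was 0.50 above Fc in set 1 and 0.23 below it in set 2 on the log2 scale, and the mean of 0.14 (SE 0.39, limma, adjusted p = 1) hides this. Leaving out the set 1 array of Ecrg4(133-148) gave -0.28. In the blocked fit the adjusted p was 0.399 for Ecrg4(71-132) and 0.952 for Ecrg4(133-148) in limma. In both comparisons 0% of genes passed with or without the block, where 643 and 88 genes reached an unadjusted p under 0.05 unblocked, and 3556 and 1005 blocked. With the block and without the set 1 array of Ecrg4(71-132), 481 genes passed for that fragment (2.52%), and Plau (adjusted p = 0.235) and Plaur (adjusted p = 0.106) were not among them.

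Between the fragments the Plau difference was nearly equal in the sets. Ecrg4(133-148) was 1.51-fold above Ecrg4(71-132) in set 1 and 1.57-fold above it in set 2, or 0.59 and 0.65 on the log2 scale. The mean of 0.62 (SE 0.39, 95% interval -0.37 to 1.61) did not pass (limma, adjusted p = 1), nor did it in the blocked fit (SE 0.29, interval -0.13 to 1.37, limma, adjusted p = 0.714). Of all genes, 33.5% were higher with Ecrg4(133-148) in both sets. Plau thus stood higher with the fragment that gave the lower Serpinb2 and Plaur levels, in both sets, but none of these 3 differences passed the test. Fc minus PBS in Plau was -0.08 (SE 0.39, limma, adjusted p = 1), and set 2 minus set 1 was -0.45 (SE 0.20, limma, adjusted p = 0.117).

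Plat, the gene of tissue plasminogen activator, was measured in set 1 only. There it stood at 0.62 with PBS, -0.39 with Fc, 0.26 with Ecrg4(71-132) and -0.58 with Ecrg4(133-148), from intensities of 1187, 615.7, 749.0 and 488.5. In set 2 the intensities were 6.82, 8.15, 20.6 and 7.42, and the probe was not well above background on any of the 4 arrays.

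Averaged over the treatments, Plat was at least 15.3-fold higher in set 1. This bound sets the set 1 mean of -0.02 against -3.96, the mean over the set 2 arrays of the higher of the lowest signal well above background and the probe's own. The measured set 2 mean was -5.82. Plat was well above background on 1 of 2 arrays of every group, so it did not pass the filter on dim probes and was not among the 3 members fitted. With 1 measured array per treatment, the differences between treatments in Plat have no replicate check. Within set 1, Fc was 2.02-fold below PBS, Ecrg4(71-132) 1.57-fold above Fc and Ecrg4(133-148) 1.13-fold below Fc.

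The marker lists of other cell types differed between the sets in both directions. Of 10 astrocyte markers, 10 were well above background on each set 1 array and 3 to 7 on the set 2 arrays, with Gja1 and Sox9 on none of these. The median astrocyte marker ran from -0.17 to 0.50 in set 1 and from -5.13 to -3.51 in set 2. Their summed level on the linear scale went the other way, from 30.7 to 44.9 in set 1 and from 72.6 to 76.9 in set 2. Aldoc, a glycolytic enzyme also made by other cells, and Aldh1l1 were higher in set 2. The summed level in set 2 came almost wholly from these genes.

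Of 6 fibroblast markers, 5 to 6 were well above background in set 1 and 1 to 3 in set 2, with Col3a1 and Lum on none of the set 2 arrays. Their summed level was 23.6 to 51.4 in set 1 and 0.41 to 0.92 in set 2. Of 6 neuron markers, 4 to 5 were well above background in set 1 and 1, Snap25, in set 2, where Snap25 was higher (1.60 to 1.70 in set 1, 2.02 to 2.97 in set 2). The summed neuron level was 4.21 to 5.47 in set 1 and 4.16 to 8.00 in set 2.

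Other lists had higher sums in set 2. The oligodendrocyte sum was 39.6 to 42.0 in set 1 and 94.1 to 113 in set 2, the endothelial sum 12.4 to 13.3 and 25.9 to 31.1, and the neutrophil sum 14.3 to 15.9 and 17.0 to 24.2. Of the 9 microglia markers fitted, 6 were lower in set 2 and 2 higher (limma, adjusted p under 0.05), with a median difference of -1.70. Of all genes fitted, 22.8% were lower and 36.4% higher by this test, with a median difference of 0.11. Cx3cr1, the fractalkine receptor gene, stood at 4.58 to 4.71 in set 1 and -3.25 to -0.74 in set 2. Csf1r, the receptor that microglia depend on, stayed between 7.90 and 8.17 on all 8 arrays. Lower levels in set 2 were seen in markers of microglia and in markers of other cell types, and their cause was not tested.

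Within set 1, Plat was highest with PBS, then Ecrg4(71-132), then Fc, and lowest with Ecrg4(133-148). A tally chosen after the data were seen took the genes well above background on all 4 set 1 arrays. This order held for 6 of 10 astrocyte markers, 3 of 5 fibroblast markers, 1 of 4 neuron, 1 of 7 oligodendrocyte and 0 of 10 microglia, 0 of 4 endothelial and 0 of 3 neutrophil markers, and for 3.73% of all 19171 such genes. Gfap, the astrocyte filament gene, stood at 2.43 with PBS, 1.59 with Ecrg4(71-132), 1.14 with Fc and 1.11 with Ecrg4(133-148). Dcn, a fibroblast proteoglycan gene, stood at 3.79, 3.10, 2.83 and 2.59, and Sox9 at 0.08, -0.46, -1.08 and -1.09 for the same treatments. In Gfap and Sox9 the last 2 places rest on small gaps. The order was read from Plat on the same 4 unreplicated arrays. Markers of 1 cell type can move together on them, so the counts are no separate evidence. Among the markers that broke the order, Aqp4, the astrocyte water channel gene, shared the first 2 places, but Fc (0.08) lay below Ecrg4(133-148) (0.15). The part of these cells in the Plat signal was not tested, and in bulk RNA fewer cells of a type and less RNA per cell cannot be told apart. In all, 1041 of the 36754 genes with a usable probe were well above background on every set 1 array and on no set 2 array, and 61 the reverse.

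**Figure D3:**
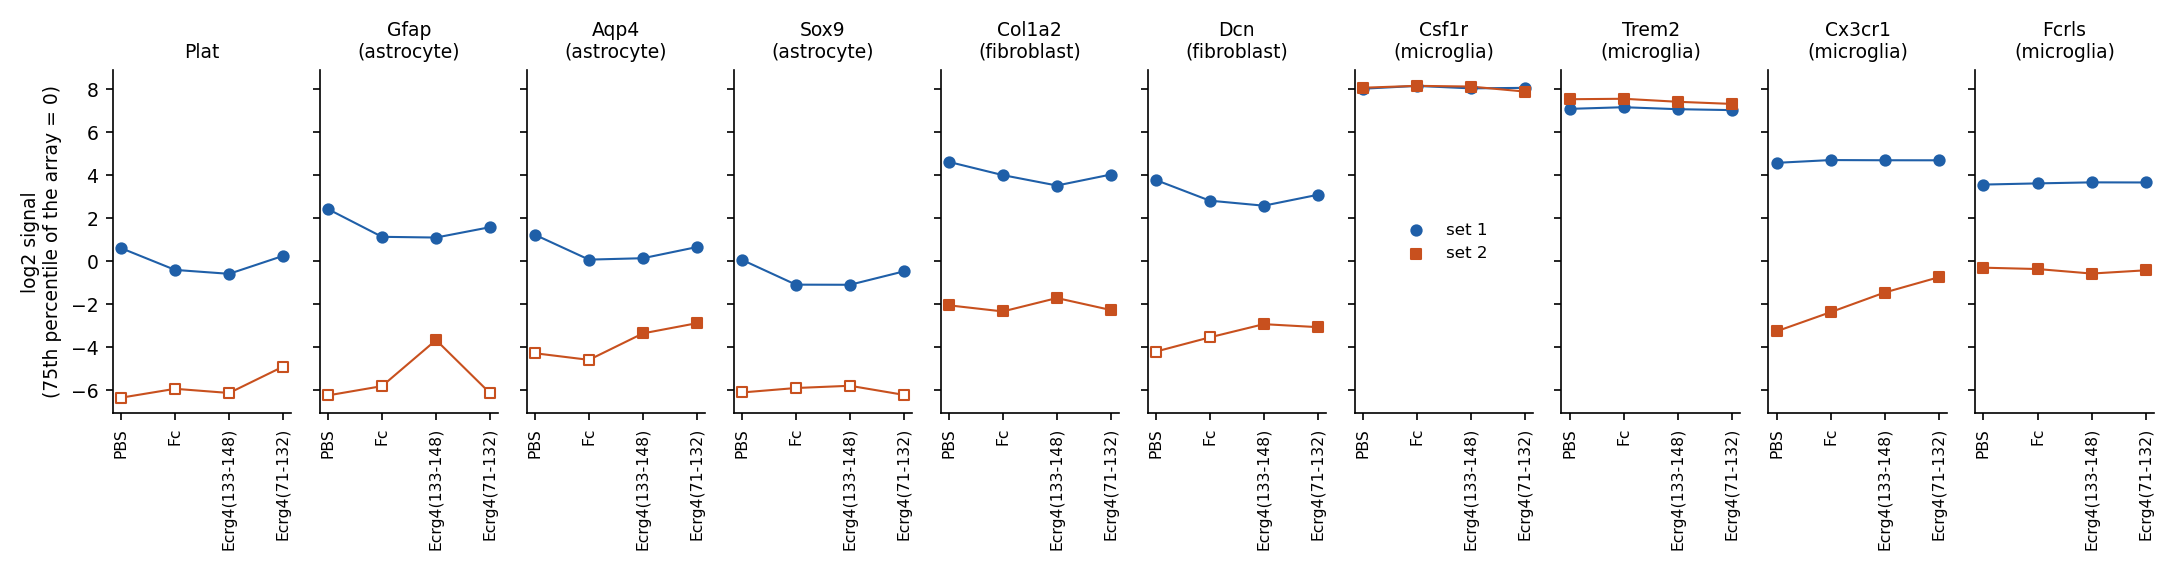
Log2 signal (vertical axis, 75th percentile of the array at 0) of Plat, 3 astrocyte markers, 2 fibroblast markers and 4 microglia markers for each treatment (horizontal axis). Blue circles are set 1 and orange squares set 2, and open symbols mark arrays on which the probe was not well above background. Plat and the astrocyte and fibroblast markers shown lie far lower in set 2. Csf1r (7.90 to 8.17) and Trem2 (7.04 to 7.56) stay high on all 8 arrays, while Cx3cr1 and Fcrls lie lower in set 2. Aldoc and Aldh1l1, astrocyte markers not shown here, were higher in set 2, as was the summed astrocyte level, which came almost wholly from them there.

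The rest of the plasminogen system is given from a list of 30 further genes, of which 30 had a probe and 20 were fitted. None of the 20 passed the test in either direction for either fragment against Fc (limma), where 0% of all genes did. With Ecrg4(71-132), 11 of 20 were higher in both sets and 3 lower, against 28.5% and 36.4% of all genes. Their median log2 difference was 0.08 in set 1 and 0.07 in set 2, against -0.01 and -0.03 for all genes. With Ecrg4(133-148), 5 were higher and 3 lower in both sets, with medians of 0.01 and 0.01. No member of the list was over 2-fold from Fc in both sets with either fragment. Of all genes, 0.46% were so higher and 0.267% lower with Ecrg4(71-132), and 0.0523% and 0.0262% with Ecrg4(133-148).

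By the rule for lists with no such gene, the brightest member is named: Anxa2, which encodes a cell surface receptor for plasminogen and tissue plasminogen activator. It stood between 7.86 and 8.77 on the 8 arrays, with differences from Fc of 0.21 and 0.10 for Ecrg4(71-132) and 0.15 and -0.03 for Ecrg4(133-148). S100a10, its partner protein gene, and Plgrkt, another plasminogen receptor gene, had mean differences of 0.05 and -0.17 from Fc with Ecrg4(71-132).

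Thbd, chosen after its values were seen, encodes thrombomodulin, which takes part in slowing fibrin breakdown. It was level with Fc in set 1, by 0.05 with Ecrg4(71-132) and 0.04 with Ecrg4(133-148), and below Fc in set 2, by -2.01 and -0.87. The mean difference with Ecrg4(71-132) was -0.98 (SE 0.62, limma without the set as a block, adjusted p = 1). For Serping1 and Hrg the Fc array of set 2 was not well above background, so no difference is given there. Plg, the plasminogen gene itself, was not among the genes fitted.

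**Figure D4:**
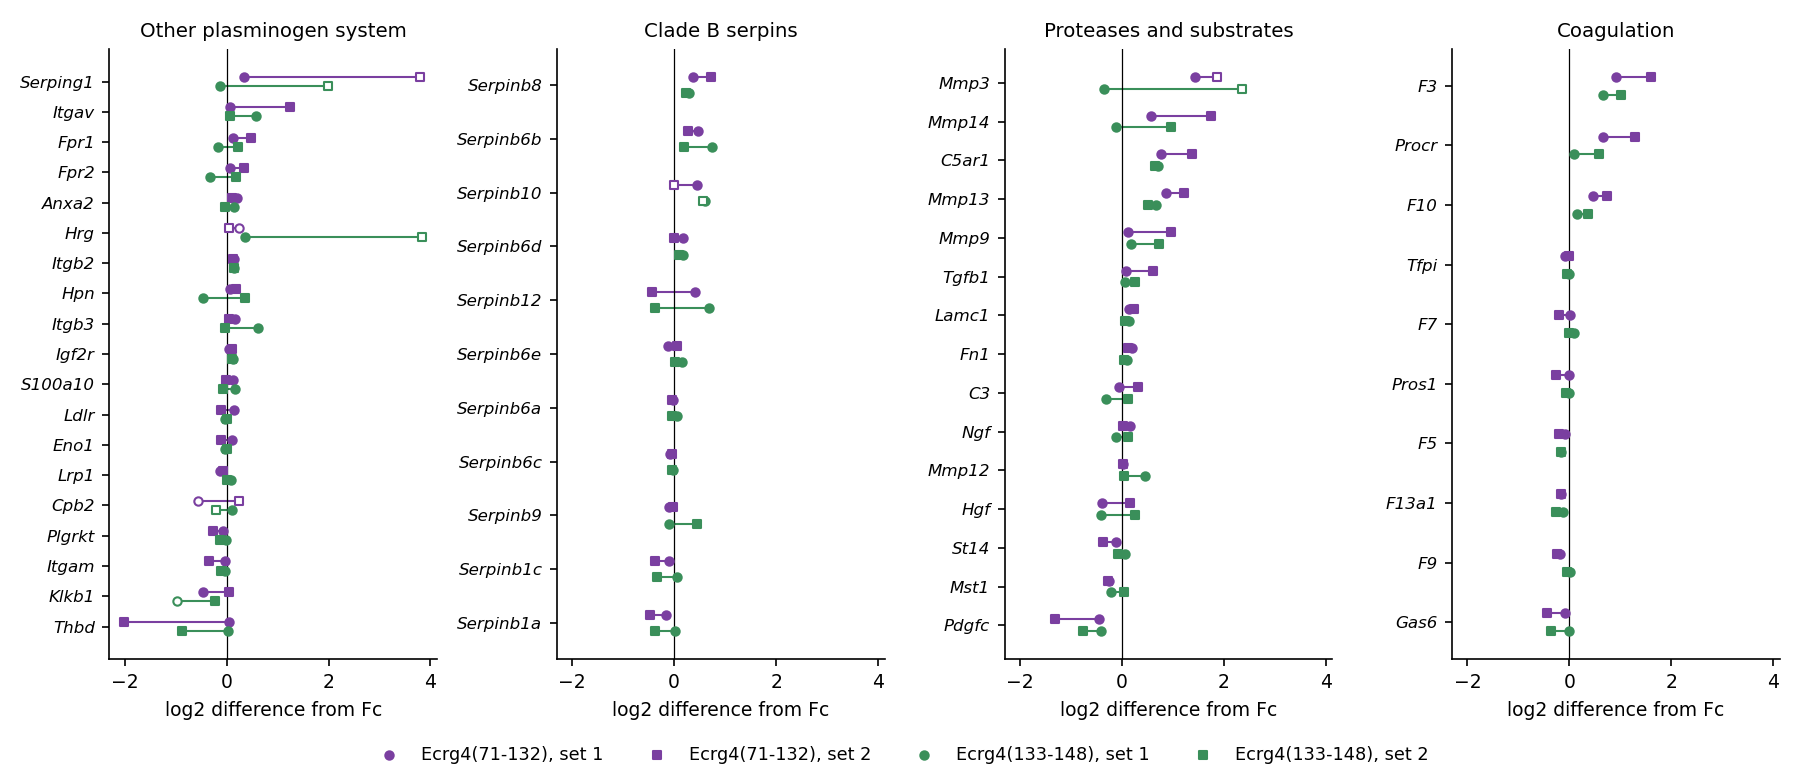
Log2 difference from Fc (horizontal axis) of the fitted genes of 4 lists, all but 1 of them (rows, sorted by the mean for Ecrg4(71-132)). Purple marks Ecrg4(71-132) and green Ecrg4(133-148), circles are set 1 and squares set 2 joined by a line, and open symbols mark pairs in which at least 1 array was not well above background. Most genes of all 4 lists lie near 0, and those farther out, such as Thbd, Mmp14 and F3, differ more in set 2 than in set 1 with Ecrg4(71-132).

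No other fitted serpin of the Serpinb2 family was over 2-fold from Fc in both sets. Few of all genes were: 0.46% higher and 0.267% lower with Ecrg4(71-132), and 0.0523% and 0.0262% with Ecrg4(133-148). With so few serpins fitted, this does not set Serpinb2 apart from its family. Of 26 other clade B serpin genes, which encode mostly intracellular protease inhibitors, 11 were fitted. With Ecrg4(71-132), 3 of the 11 were higher than Fc in both sets and 5 lower (28.5% and 36.4% of all genes), and with Ecrg4(133-148) 5 were higher and 1 lower (28.5% and 30.6%). Their medians were -0.03 and -0.03 with Ecrg4(71-132), and 0.14 and 0.01 with Ecrg4(133-148). None passed (limma). Serpinb6a, the brightest of the list, stood between 6.70 and 7.70, with differences from Fc of -0.03 and -0.04 with Ecrg4(71-132). The Serpinb6 genes are close copies, and their probes may share signal.

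Serpinb10 and Serpinb8 are the next protein-coding genes after Serpinb2 in the GRCm38.p6 gene table, and were chosen after their values were seen. Serpinb8 was higher than Fc by 0.37 and 0.73 with Ecrg4(71-132) and by 0.28 and 0.24 with Ecrg4(133-148) in set 1 and set 2 (SE of the mean difference 0.15, limma, adjusted p = 1). Serpinb10 was higher than Fc by 0.45 with Ecrg4(71-132) and 0.60 with Ecrg4(133-148) in set 1. In set 2 Fc was not well above background for Serpinb10. The 3 genes before Serpinb2 (Serpinb3c, Serpinb11 and Serpinb7) were not among the genes fitted.

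Of 25 genes for proteases and substrates on which plasmin or its activators act, 15 were fitted. With Ecrg4(71-132), 10 were higher than Fc in both sets and 3 lower (28.5% and 36.4% of all genes), with medians of 0.13 and 0.24. With Ecrg4(133-148) 7 were higher and 1 lower (28.5% and 30.6%), with medians of 0.05 and 0.12. None passed (limma). Mmp3, which encodes the matrix protease stromelysin 1, was the one member over 2-fold higher with Ecrg4(71-132) by its signals in both sets (0.46% of all genes), by 1.44 and 1.88, but neither Fc nor the fragment array was well above background in set 2. Measured on all 8 arrays and chosen after their values were seen, Mmp13, which encodes collagenase 3, was 0.87 and 1.22 above Fc with Ecrg4(71-132) and 0.67 and 0.51 with Ecrg4(133-148). Mmp14, which encodes a membrane-bound matrix protease, was 0.58 and 1.74 above Fc with Ecrg4(71-132), and -0.11 and 0.96 from it with Ecrg4(133-148). Pdgfc, also measured on all 8 arrays and chosen after its values were seen, went the other way. Its differences from Fc were -0.44 and -1.31 with Ecrg4(71-132), and -0.40 and -0.76 with Ecrg4(133-148).

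Of 22 coagulation genes 10 were fitted and none passed (limma). With Ecrg4(71-132), 3 were higher than Fc in both sets and 6 lower (28.5% and 36.4% of all genes), and with Ecrg4(133-148) 3 were higher and 5 lower (28.5% and 30.6%). The same 3 were higher with both: F3, Procr and F10. F10, the brightest of the list and the gene of clotting factor X, was 0.46 and 0.74 above Fc with Ecrg4(71-132). F3, which encodes tissue factor, the starter of clotting, was chosen after its values were seen. It stood at 2.21 with PBS, 1.88 with Fc, 2.80 with Ecrg4(71-132) and 2.54 with Ecrg4(133-148) in set 1. The set 2 levels were 2.88, 3.20, 4.80 and 4.20 in that order. The mean difference from Fc was 1.26 with Ecrg4(71-132) (SE 0.92, limma, adjusted p = 1) and 0.83 with Ecrg4(133-148). That SE is from the fit without the block, so it holds the difference between the sets. With Ecrg4(71-132) F3 was 0.92 above Fc in set 1 and 1.60 above it in set 2. The fragment comparisons share their Fc arrays, so their agreement in direction is no separate evidence.

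The genes most like each member were sought among 1040 genes with a symbol that were well above background on all 8 arrays. Over the 8 arrays together, their range was at least 2-fold once the set means were removed. Likeness was Pearson's correlation over the 8 arrays after each set's mean was subtracted, and is given as a description. For Serpinb2 the 5 highest were Olr1 (0.98), an oxidised lipoprotein receptor gene, Ch25h (0.98), a cholesterol hydroxylase gene, Gramd1b (0.98), C5ar1 (0.98), the receptor gene for complement C5a, and Slc2a1 (0.97), a glucose transporter gene. Their differences from Fc with Ecrg4(71-132) ran from 0.45 to 1.59 in set 1 and from 0.96 to 2.34 in set 2, all smaller than those of Serpinb2.

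For Plaur the 5 highest were Ccl3 (0.97) and Ccl7 (0.95), both chemokine genes, Scimp (0.97), Il1rn (0.97), the interleukin-1 receptor antagonist gene, and Ch25h (0.94). Ch25h thus appears with both Serpinb2 and Plaur. For Plau the 5 highest were Xrcc3 (0.98), a DNA repair gene, Rnf157 (0.98), Cdca7 (0.98), Myc (0.97), a growth-regulating transcription factor gene, and Atf7ip2 (0.97). All 5 were lower than Fc with Ecrg4(71-132) in set 2, by -0.88 to -1.34. Myc stood at 1.71 with Ecrg4(71-132) and 2.18 with Ecrg4(133-148) in set 1, with PBS at 1.55 and Fc lowest. In set 2 the fragments gave 0.49 and 1.15, PBS 1.60 and Fc 1.38. As in Plau, Ecrg4(133-148) was the highest array of set 1 and Ecrg4(71-132) the lowest of set 2. Such shared features follow from picking genes by their correlation with Plau over the same arrays. Without the set means removed, the correlations of these genes ran from 0.54 (Olr1) to 0.98 (Gramd1b) for Serpinb2, from -0.21 (Ccl7) to 0.98 (Il1rn) for Plaur, and from -0.01 (Rnf157) to 0.98 (Myc) for Plau. No such list is given for Plat, whose set 2 values are not well above background.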

How the data were processed

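Total RNA was labelled with Cy3 and hybridised to 1-colour Agilent arrays. The deposited files hold spot intensity on a linear scale, and the submitters' processing notes name Agilent Feature Extraction 11.0.1.1. A deposited table by the authors holds log2 values, which follow the scanner values minus a constant per array (correlation 1). The choice of that constant is not stated.

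From the scanner files, log2 processed intensity minus each array's 75th percentile was computed, outlying spots were left out and spots of 1 probe averaged. No spot was saturated. RefSeq accessions named 28026 of 55681 probes through a GRCm38.p6 table. The array was annotated on mm9, so probe coordinates are left out. A probe had to be well above background on both arrays of some group, and each gene was read from its brightest such probe (19114 genes). Limma (3.58.1, under R 4.3.3) estimated 1 mean per group over all 8 arrays (4 residual degrees of freedom), with Benjamini-Hochberg adjustment over all genes and a threshold of 0.05. The set difference came from a fit with a term for the set. The fit was tested on simulated data.

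Across genes, the set 2 minus set 1 differences of any pair of groups had a correlation of 0.78 to 0.86 (6 pairs). The set numbers were therefore taken to pair the arrays. Values with the set as a block are given for the tested fragment comparisons of Serpinb2, Plaur and Plau. For Fc against PBS and for treatments in list genes such as F3, Thbd and Serpinb8, the SE printed is from the fit without the block. That SE holds the difference between the sets. The members and lists were chosen with earlier results of these data known. Genes named from a list were those over 2-fold from Fc in the same direction in both sets or passing the test, and otherwise the brightest. Others are said to be chosen after their values were seen. Alternatives covered normexp correction (offset 50), quantile and median scaling, the deposited table, filters, probe averaging, moderation and each array left out. Comparisons of the fragments with PBS were not tested. One gene of the plasminogen system list is counted but not reported here.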

Additional observations from a re-analysis of the deposited data

How the results depend on the processing

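In the 4 comparisons of treatments 0 genes passed under every alternative with all 8 arrays. With an array left out the count for Ecrg4(71-132) against Fc ran from 0 to 481, the latter with the set as a block and without the set 1 array of that fragment, and 1 gene passed with the block and without the set 1 Fc array. For the other 3 it stayed 0. Between the sets, 18666 of 36754 genes passed with no filter on dim probes, against 11328, and 8911 to 11043 with an array left out. Of the alternative values of single members, 332 kept their direction and their side of the threshold or lay within the replicate spread, 14 changed sign, 1 moved and 1 passed the threshold. With normexp correction Plau was lower in set 2 by -0.48 (limma, adjusted p = 0.044). Plau in Fc against PBS turned to 0.0086 under median scaling. The other changes of sign came with an array left out. The range was then -0.063 to 1.20 for Plaur and -0.93 to -0.04 for Plau in Ecrg4(71-132) against Fc, -0.22 to 1.03 for Plaur and -0.28 to 0.56 for Plau in Ecrg4(133-148) against Fc, -0.71 to 0.38 for Plaur between the fragments, and -0.52 to 0.83 for Plaur, -0.41 to 0.26 for Plau and -0.020 to 0.90 for Serpinb2 in Fc against PBS. In the blocked fits Plau turned to -0.087 and -0.123 in Ecrg4(133-148) against Fc, without the set 1 array of Fc or of the fragment, and to 0.149 and 0.26 in Fc against PBS, without the set 1 Fc or the set 2 PBS array. Serpinb2 turned to -0.020 in Fc against PBS in the blocked fit without the set 1 Fc array. Plau between the fragments stayed at 0.17 to 1.07. With the set as a block, 0 genes passed in each comparison of treatments and no member's call changed. The signal over background limits Plat, which has no value well above background in set 2.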

Other observations

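Beside Plaur and Plat, further genes of these lists differed between the sets with the treatment held. Of the 20 fitted genes of the plasminogen system, 9 were higher in set 2 and 3 lower (limma, adjusted p under 0.05), where 36.4% and 22.8% of all genes were. Among those chosen after their values were seen, Fpr2, a formyl peptide receptor gene, was 2.49 higher in set 2 (SE 0.10), Itgb2, the gene of a leukocyte integrin, 1.68 higher (SE 0.04) and Lrp1, which encodes a receptor that clears activator and inhibitor complexes, 0.98 higher (SE 0.06).

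Of the 11 clade B serpins fitted, 8 were higher in set 2 and 2 lower (36.4% and 22.8% of all genes). Among the 8 were Serpinb6a, Serpinb6c, Serpinb6d and Serpinb6e, by 0.91, 0.94, 1.01 and 1.06. Their probes may share signal, so they may not count as separate genes. Serpinb10, which lies beside Serpinb2, stood at 1.02 to 1.72 in set 1 and at -3.72 to -3.11 in set 2, where it was not well above background with Fc. Serpinb2 and Serpinb8 on either side of it among the protein-coding genes differed between the sets by 0.25 and -0.02. Of the 10 coagulation genes fitted, 6 were higher in set 2 and 3 lower (36.4% and 22.8% of all genes). F13a1, which encodes a clotting factor that cross-links fibrin, was at -4.99 (SE 0.05) and Gas6, a growth arrest factor gene, at -3.68 (SE 0.10), while Procr and F7 were 2.16 and 2.06 higher in set 2. These genes too were picked with their values known. Whether the sets differ by culture, animal or handling is not stated in the labels.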
